A study of Mus musculus with 2 samples.

Results

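The cells described here were CD8 T cells from mouse melanoma tumours that carried RNA of the checkpoint receptor gene Pdcd1 together with much RNA of the chemokine gene Xcl1. They were chosen by measured counts. Barcodes needed at least 500 genes, at most 10% mitochondrial unique molecular identifiers (UMIs, each 1 captured RNA molecule) and 1 hashtag holding at least 80% of hashtag UMIs. Cells then needed at least 1 UMI of Cd8a and Cd8b1 together, no UMI of Cd4, Foxp3, Mki67 or Top2a, at least 1 Pdcd1 UMI and at least 3 Xcl1 UMIs. The rule gave 101 Xcl1-rich cells out of 10713 filtered cells with 1 hashtag, which is 0.943% of them and 8.52% of the 1186 Pdcd1-positive cells of the gate. The comparison cells, called Xcl1-zero, were the 934 cells of the same gate with Pdcd1 and no Xcl1 UMI, and the 151 cells with 1 or 2 Xcl1 UMIs lay between.

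XCL1 is a secreted chemokine whose receptor, XCR1, is carried by the dendritic cells that present antigen to CD8 T cells, and activated CD8 T cells and natural killer cells are its known sources. PD-1, the product of Pdcd1, is an inhibitory receptor that T cells put on their surface after antigen recognition and keep during chronic stimulation. In tumours, PD-1-positive CD8 T cells range from progenitor-like cells, for which Tcf7 is a marker, to terminally exhausted cells, for which Havcr2 is a marker.

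The mice were C57BL/6J animals with melanoma tumours, and the study compared treatment with the bacterium Lactobacillus reuteri (LR, mice 1 to 4) with PBS (mice 6 to 9). Per the labels, T cells were enriched by CD90.2, 8000 live CD8+ cells per mouse were sorted, cells of a condition were pooled, and all 8 hashtagged mice shared 1 lane of a 5′ single-cell assay. The sample labels give the treatment as L. reuteri or none, the cells as CD3+ T cells, and neither age nor melanoma line. The mouse was the replicate, and treatment came from the hashtag names. Steps done on pooled cells of a condition cannot be told apart from treatment.

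Xcl1-rich cells were few in every mouse. LR mice 1 to 4 held 20, 22, 9 and 9 of them, and PBS mice 6 to 9 held 8, 5, 16 and 12. Within a cell, Xcl1 ran from 3 to 408 UMIs with a median of 10. The threshold cut through a continuous range: 12 cells had exactly 3 Xcl1 UMIs and 44 had exactly 2. At the other end, 30 cells had 20 or more, and the 10 highest cells held 56.3% of the 3126 Xcl1 UMIs of the set. Summed over the cells of a mouse and scaled to 1000000 gene UMIs (CPM), Xcl1 was at 2766, 3785, 3583 and 1056 CPM in the Xcl1-rich cells of LR mice 1 to 4. It was at 2292, 9203, 2537 and 6848 CPM in those of PBS mice 6 to 9. The highest value, in PBS mouse 7, came from only 5 cells, 1 of which had 256 Xcl1 UMIs.

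**Figure D1:**
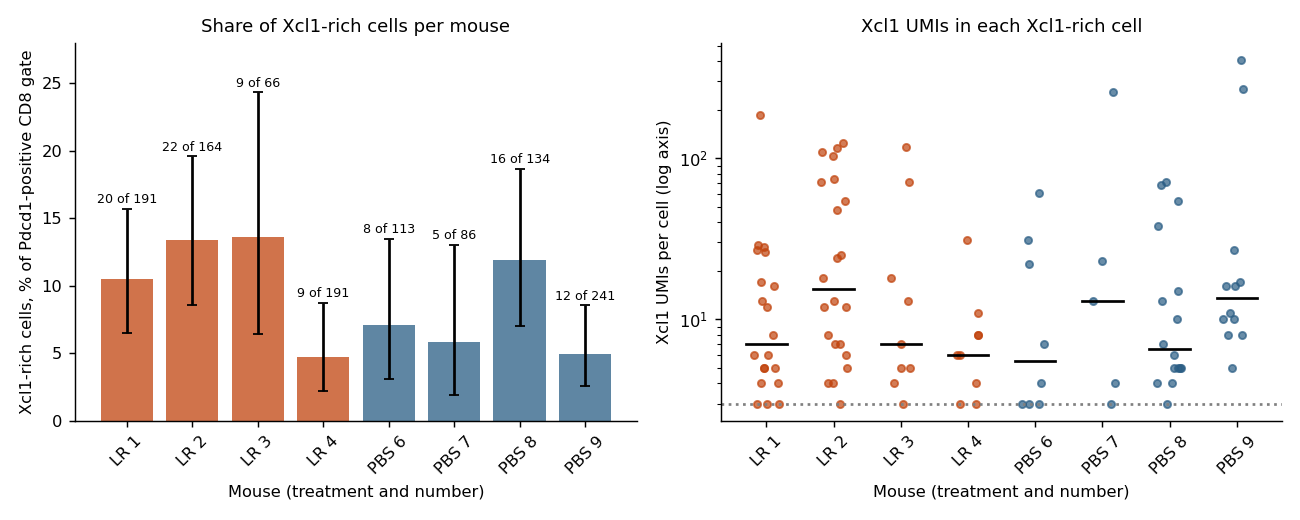
Left, bars give the percent of Pdcd1-positive CD8 gate cells that were Xcl1-rich in each mouse, with exact 95% binomial intervals, which cover counting error only, and the cell numbers above (orange LR, blue PBS). Right, each point is 1 Xcl1-rich cell, plotted by its Xcl1 UMIs on a log axis, with the median of each mouse as a line and the threshold of 3 dotted. The shares run from 4.71% to 13.6% and the treatments overlap.

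Together the 101 cells held 37.1% of the 8418 Xcl1 UMIs of all filtered cells. Cycling CD8 cells, which the rule left out because they had Mki67 or Top2a, held more, 43.9% over 1000 cells. They stood at 448 CPM (95% Poisson interval 434 to 463, counting error only), and 110 of them (11%) had 3 or more Xcl1 UMIs. Pdcd1-negative cells of the same CD8 gate stood at 54.8 CPM over 3910 cells, and 34 of those had 3 or more. Cells with Ncr1 and no CD3, the natural killer phenotype, numbered 18 and stood at 1112 CPM. Of the 1373 Cd4-positive cells without CD8 or Foxp3, 5.75% had an Xcl1 UMI at a median of 2856 gene UMIs, but only 0.219% had 3 or more. The highest of them held 54 of their 150 Xcl1 UMIs, and how much of the rest was free RNA was not tested. Xcr1, the receptor gene, gave 21 UMIs in 16 cells of the whole data set and none in the Xcl1-rich cells.

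The Xcl1-rich cells were deeper than the Xcl1-zero cells, with medians of 7782 against 4349 gene UMIs and 2550 against 1776 genes. A count threshold favours deep cells. The comparison of Xcl1-rich with Xcl1-zero cells was therefore also fitted within 3000 to 10000 UMIs and with each cell thinned to 2000 UMIs, over all 8 mice after the data were seen. The share of Xcl1-rich cells was compared between treatments at matched depth too. Genes between treatments and receptor segments were not. Many sparse genes, Cd83, Lad1, Egr2, Tnfsf14 and Cd200 among them, fell below the filter on low counts in both fits and have no such value. Mitochondrial UMIs were at a median of 1.47% and 1.51%. The hashtag share, by which a cell was given to a mouse, had its lowest medians in the Xcl1-rich cells of LR mice 3 and 4, at 85.2% and 88.9%. The doublet caller Scrublet marked 11 Xcl1-rich cells (10.9%) and 62 Xcl1-zero cells (6.64%).

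The label under which these cells were proposed names Csf2, Ifng and Ccl1 beside Pdcd1 and Xcl1. These genes were known from earlier results of the same data, so their values are a description with no test. Ccl1, a chemokine whose receptor is CCR8, was the most clearly higher of them. In the Xcl1-rich cells it stood at 1298, 179, 899 and 185 CPM in LR mice 1 to 4 and at 17.1, 1016, 973 and 987 CPM in PBS mice 6 to 9. In the Xcl1-zero cells no mouse exceeded 39.7 CPM. Except in PBS mouse 8, a single cell held most of the Ccl1 UMIs of a mouse's Xcl1-rich cells. That cell had 142 in LR mouse 1, 107 in PBS mouse 9 and 25 in PBS mouse 7. The means were 694 ± 486 and 20.5 ± 13.1 CPM (SD, n = 8 mice), and PBS mouse 6 was the exception with 1 Ccl1 UMI in its 8 cells. Csf2, which encodes the growth factor GM-CSF, averaged 50.7 ± 62.1 against 3.40 ± 2.53 CPM (SD, n = 8) and was at 0 in the Xcl1-rich cells of LR mouse 3 and PBS mouse 9.

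Ifng, the gene of interferon gamma, did not separate the groups mouse by mouse. It averaged 529 ± 485 CPM in Xcl1-rich and 234 ± 60.3 CPM in Xcl1-zero cells (SD, n = 8). It was higher in the Xcl1-rich cells of LR mice 1 and 3 and PBS mice 8 and 9, and lower in those of the other 4 mice. Pdcd1, of which the rule required a UMI in both groups, stood at a median of 5 UMIs per cell in Xcl1-rich and 2 in Xcl1-zero cells, and at 636 ± 197 and 685 ± 123 CPM (SD, n = 8). That requirement lifts the CPM of shallow cells more than that of deep ones. Cd8b1 ran from 554 to 1183 CPM and from 1200 to 1594 CPM, so that the Xcl1-rich cells were lower in each mouse. Cd8a, the other gene of the CD8 gate, ran from 554 to 1283 CPM and from 687 to 1102 CPM and was higher in the Xcl1-rich cells of 5 of 8 mice. The label thus holds as a gate on Pdcd1 and Xcl1 and as a Ccl1 pattern in 7 of 8 mice, and for Ifng in only 4 of 8. Csf2 was higher in all mice but LR mouse 3 and PBS mouse 9, by a single UMI in LR mouse 4 and PBS mouse 7. It was seen in 13.9% of Xcl1-rich cells.

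Upstream sequence is given for Xcl1, which defines the cells, and for the label genes Ccl1 and Ifng, to show the letters before each start. RefSeq (GRCm38.p6) places these 250 bases before the Xcl1 start at chr1:164935523-164935772 (minus strand), before the Ccl1 start at chr11:82179813-82180062 (minus strand) and before the Ifng start at chr10:118440796-118441045 (plus strand). They are printed 5′ to 3′ in the direction of transcription, and capitals mark each GGAAA, the core letters bound by NFAT factors, on either strand (TTTCC as printed).
Xcl1: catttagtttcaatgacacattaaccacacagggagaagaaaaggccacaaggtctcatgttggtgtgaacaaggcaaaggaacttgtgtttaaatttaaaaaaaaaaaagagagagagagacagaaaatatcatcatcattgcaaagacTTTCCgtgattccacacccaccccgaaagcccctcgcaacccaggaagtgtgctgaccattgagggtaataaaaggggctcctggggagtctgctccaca
Ccl1: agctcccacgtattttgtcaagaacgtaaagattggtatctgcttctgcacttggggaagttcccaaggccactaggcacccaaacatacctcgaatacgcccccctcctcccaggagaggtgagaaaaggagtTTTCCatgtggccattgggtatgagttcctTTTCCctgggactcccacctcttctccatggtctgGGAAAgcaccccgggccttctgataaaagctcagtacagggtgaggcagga
Ifng: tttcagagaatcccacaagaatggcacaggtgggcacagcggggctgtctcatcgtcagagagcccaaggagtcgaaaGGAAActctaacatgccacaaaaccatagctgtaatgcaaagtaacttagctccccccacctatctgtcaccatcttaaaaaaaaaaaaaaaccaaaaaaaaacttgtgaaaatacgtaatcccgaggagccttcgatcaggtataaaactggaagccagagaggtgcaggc
The Ccl1 window held 3 such matches and the others 1 each. GGAAA is common: 55.6% of 32851 RefSeq upstream windows of this length hold it on either strand. None of the 3 windows held TGANTCA, the AP-1 letters, which 6.75% of windows hold. A match is a description of letters and not a binding site.

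The label genes also varied with how much Xcl1 a cell held. Over cells of all mice, Ccl1 stood at 21.0 CPM with no Xcl1 UMI, 60.2 with 1 UMI and 127 with 2 UMIs, on the near side of the threshold. Among Xcl1-rich cells there was no steady order. The 12 cells just inside the threshold, with exactly 3 Xcl1 UMIs, had Ccl1 between 341 and 622 CPM by a 95% Poisson interval, cells with 4 stood at 384 CPM, those with 5 to 9 at 181, those with 10 to 19 at 313 and those with 20 or more at 1369 CPM. In the last class 2 cells, with 142 and 107 Ccl1 UMIs, held 249 of its 409. The share of cells with a Ccl1 UMI was 33.3%, 50%, 28.6%, 33.3% and 43.3% in these 5 classes. Ifng stood at 213 CPM with 3 Xcl1 UMIs and 112 with 4, below the 239 CPM of cells without Xcl1, at 1513 CPM in the 28 cells with 5 to 9, and at 375 CPM with 20 or more. Ccl5, a chemokine gene of effector and memory CD8 T cells, ran the other way, from 8862 CPM with no Xcl1 UMI to 3895 with 2 UMIs and 1379 with 20 or more. These are cells pooled over mice, so the intervals cover counting error only.

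**Figure D2:**
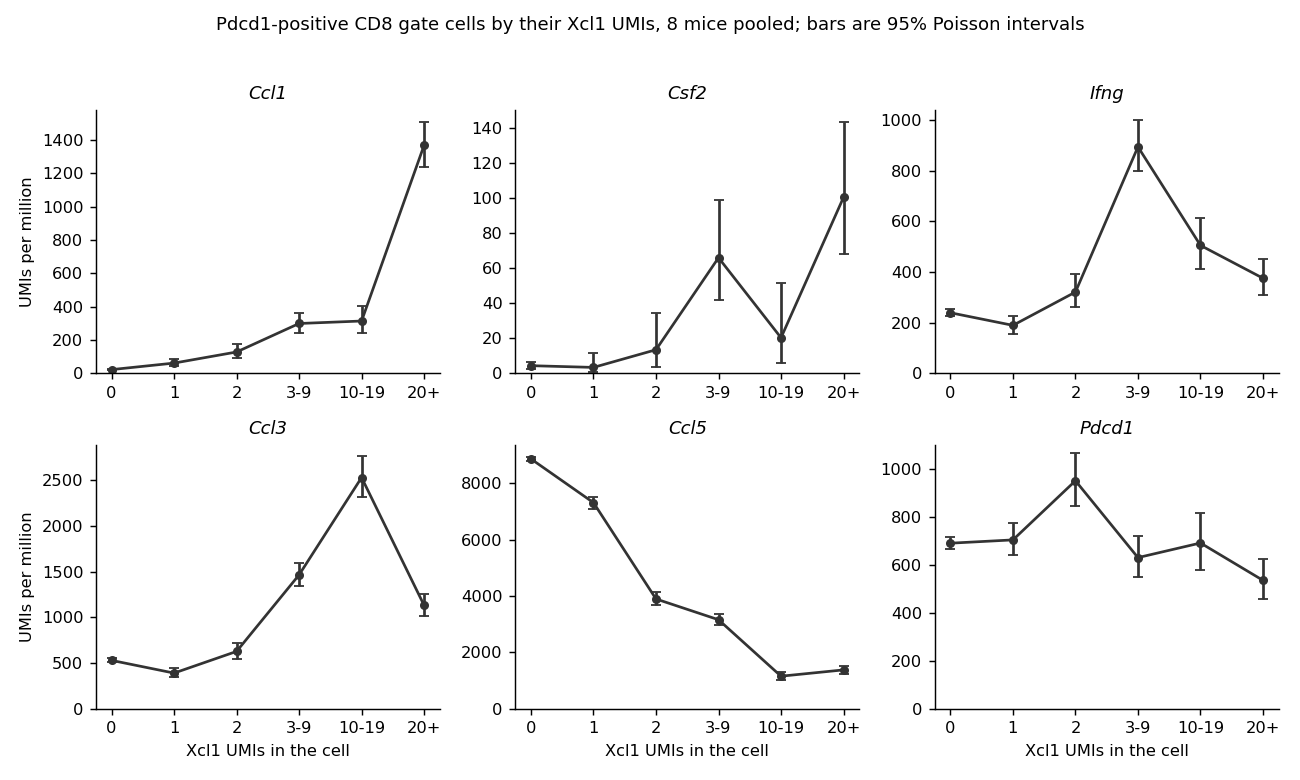
Each panel gives 1 gene in CPM, summed over all Pdcd1-positive CD8 gate cells with the Xcl1 UMI number on the horizontal axis, 8 mice pooled. Bars are 95% Poisson intervals. Cells with 3 to 9 Xcl1 UMIs are drawn as 1 class. Ccl1 stands at 1369 CPM in the cells with 20 or more Xcl1 UMIs, 249 of whose 409 Ccl1 UMIs came from 2 cells, and Ccl5 runs from 8862 CPM at no Xcl1 UMI to 1379 CPM there.

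Within the set the label genes were scattered over cells. A Ccl1 UMI was seen in 36.6% of Xcl1-rich and 4.93% of Xcl1-zero cells, and in 25.5% and 3.12% after thinning. All of Csf2, Ifng and Ccl1 were seen in 7 of the 101 cells, exactly 2 of them in 26, exactly 1 in 41 and none in 27. Tcf7 and Havcr2 split the set: 36 cells had Tcf7 only, 33 had Havcr2 only, 6 had both and 26 had neither. Ccl1 was seen in 9 of the 42 cells with Tcf7 and in 20 of the 39 cells with Havcr2.

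Xcl1-rich and Xcl1-zero cells were then compared within mice across all genes, which asks what else distinguishes the cells beyond the genes that chose them. Summed UMIs of each mouse and group entered the quasi-likelihood test of edgeR, with mouse as a block, for the 4 mice with at least 10 cells in both groups (LR mice 1 and 2, PBS mice 8 and 9). Of 4658 genes tested, 547 were higher in Xcl1-rich cells, 11.7% of those tested, and 484 were lower, 10.4% of those tested, at a Benjamini-Hochberg adjusted p of 0.05 or less. The median log2 ratio over all genes was -0.0049. With all 8 mice, a fit added after the counts per mouse were seen, 481 of 3442 genes were higher (14%) and 448 lower (13%). Of the 848 calls of the 4-mouse fit that could be tested in 8 mice, 848 had the same sign and 732 passed again. Among cells of 3000 to 10000 UMIs in 8 mice, 579 of the calls could be tested, 573 of them had the same sign and 222 passed. After thinning each cell to 2000 UMIs in the 4 mice, 544 could be tested, 540 had the same sign and 164 passed. DESeq2 called 229 higher and 151 lower on the same 4 mice, all among the genes that edgeR called.

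The gene lists below are read against those 11.7% and 10.4%, and their members that passed the filter on low counts are given as tested. That filter keeps a gene that is high enough in either group. Tnfsf14, Cd83, Lad1, Cd70, Egr2 and Cd200, among others, were kept by their Xcl1-rich values, and S1pr1 and Klf3 by their Xcl1-zero values. The ratios, p values and lack of overlap of such genes describe genes kept for those same values. Genes without overlap were not counted over all genes tested. Log2 ratios are Xcl1-rich to Xcl1-zero, with standard errors, from the 4-mouse fit, and CPM ranges cover all 8 mice.

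Among secreted factors, 9 of 21 list members were tested, 4 were higher and 2 lower, with a median log2 ratio of 0.13. In 8 mice 8 were tested, 1 was higher and 2 were lower, and the median was -0.38. Tnfsf14, the gene of the ligand LIGHT, ran from 34.2 to 138 CPM with a median of 54.6 in Xcl1-rich cells. It ran from 0 to 14.1 CPM in Xcl1-zero cells, so the groups did not overlap (log2 ratio 2.80 ± 0.38, edgeR adjusted p = 2.36e-06). The inflammatory chemokine genes Ccl3 (1.72 ± 0.33, edgeR adjusted p = 0.000315) and Ccl4 (1.03 ± 0.28, edgeR adjusted p = 0.00807) were also higher, and Ccl3 stood above Xcl1-zero cells in 6 of 8 mice. Ccl4 passed in 4 mice but not in all 8 (log2 ratio 0.65, edgeR adjusted p = 0.144), and its ratio was -0.14 in LR mice 1 and 2 alone. Without PBS mouse 8, Ccl3 (1.25, edgeR adjusted p = 0.112) and Ccl4 (0.80, edgeR adjusted p = 0.276) did not pass, and without PBS mouse 9 Ccl4 did not (0.47, edgeR adjusted p = 0.3). Tnf likewise passed in 4 mice (1.00 ± 0.32, edgeR adjusted p = 0.0221) and not in 8 (0.62, edgeR adjusted p = 0.131), nor without LR mouse 1 (1.06, edgeR adjusted p = 0.0523) or LR mouse 2 (0.75, edgeR adjusted p = 0.183).

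Ccl5 was the abundant secreted factor that was lower. It ran from 576 to 6639 CPM with a median of 1535 in Xcl1-rich cells and from 2696 to 12796 CPM with a median of 8978 in Xcl1-zero cells. It was lower in all 8 mice (-2.52 ± 0.30, edgeR adjusted p = 3.44e-07), and only the Xcl1-rich cells of PBS mouse 8 reached into the Xcl1-zero range. Il16 was the other lower member (-0.69 ± 0.24, edgeR adjusted p = 0.0361). Il2, the T cell growth factor, was near the limit of detection, with a UMI in 2.97% of Xcl1-rich and 1.71% of Xcl1-zero cells, and was not tested.

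**Figure D3:**
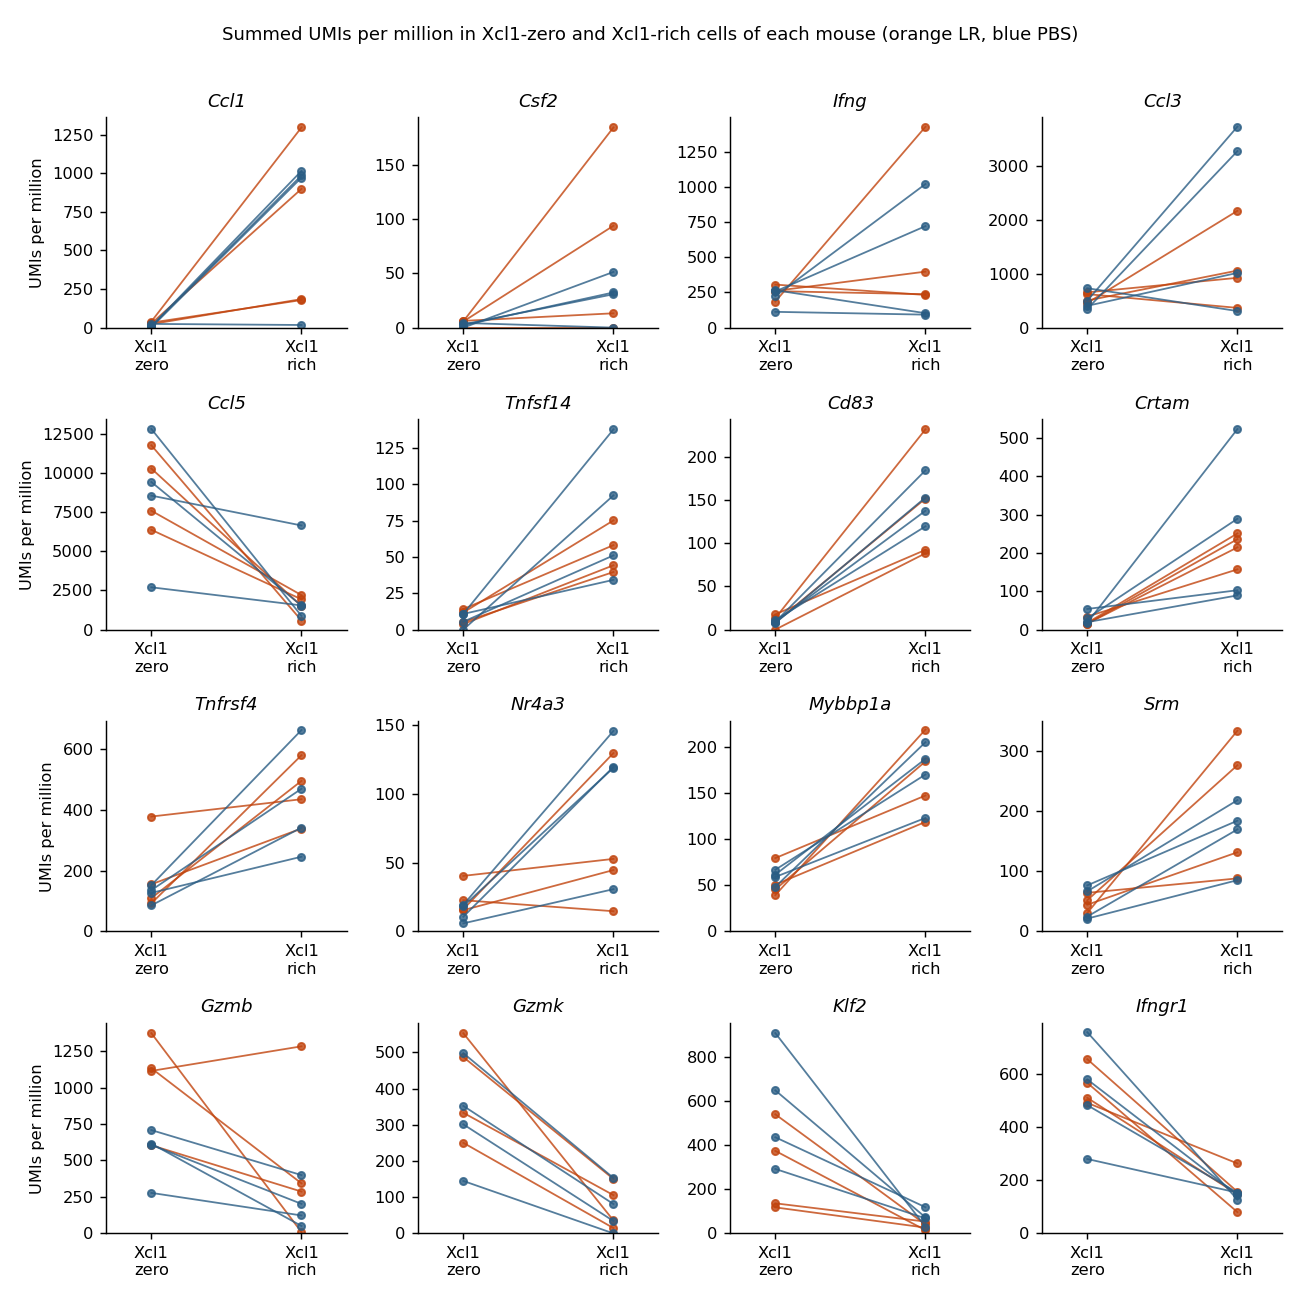
Each line joins the summed CPM of Xcl1-zero and Xcl1-rich cells of 1 mouse (orange LR, blue PBS), for 16 genes on linear axes from 0. Tnfsf14, Cd83, Crtam, Mybbp1a and Srm are higher in the Xcl1-rich cells of all 8 mice, and Ccl5, Gzmk, Klf2 and Ifngr1 are lower in all 8, while Ifng is split.

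Transcription factors that T cell receptor signals switch on formed a list of 25, of which 22 were tested, 11 were higher and none lower, with a median log2 ratio of 0.66. Egr2 (3.82 ± 0.47, edgeR adjusted p = 4.93e-07) and the orphan nuclear receptor genes Nr4a3 (2.56 ± 0.32), Nr4a1 (1.82 ± 0.33) and Nr4a2 (1.29 ± 0.17) were among them. Nr4a1 ran from 14.7 to 171 CPM in Xcl1-rich and from 7.58 to 46.5 CPM in Xcl1-zero cells and was higher in all 8 mice. The others were not: Egr2 was at 0 CPM in the Xcl1-rich cells of PBS mice 6 and 7. Nr4a3 was lower in those of LR mouse 3 (14.7 against 22.7 CPM), and Nr4a2 in those of LR mouse 4 (238 against 291 CPM). Irf8 stood at a median of 438 against 92.1 CPM (2.17 ± 0.22, edgeR adjusted p = 1.14e-08). Myc (1.36) and the noncanonical NF-kappaB genes Nfkb2 (medians 220 and 74.1 CPM, without overlap) and Relb (0.99) were higher as well. In 8 mice 17 members were tested, 9 were higher and 1 lower. In the 4 mice Fos, Jun, Junb, Egr1 and Nfatc1 did not pass, with log2 ratios between -0.51 and 0.35. Egr1 was nonetheless lower in the Xcl1-rich cells of all 8 mice, at 14.7 to 107 CPM against 34.1 to 132 CPM.

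Feedback inhibitors of signalling went both ways, with 4 of 19 tested members higher and 6 lower and a median of -0.14. Nfkbia, which encodes an NF-kappaB inhibitor, had medians of 1291 and 580 CPM (1.45 ± 0.14, edgeR adjusted p = 7.28e-09), and the phosphatase gene Dusp4 was also higher (2.01 ± 0.30). Socs3, an inhibitor of cytokine receptor signalling, was lower (-2.58 ± 0.36, edgeR adjusted p = 3.39e-06), as were Dusp2 (-0.87), Rgs1 (-0.55) and Cish (-0.66). Within 3000 to 10000 UMIs in 8 mice only 2 of the 8 called members that could be tested passed again, Nfkbia and Zfp36l1. Dusp2 was then at -0.27 (edgeR adjusted p = 0.238), Rgs1 at -0.05 (0.888) and Cish at -0.20 (0.699).

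Costimulatory receptors and activation markers held the highest log2 ratio among the lists. Cd83, an activation marker, ran from 88.5 to 232 CPM in Xcl1-rich cells and from 0 to 17.6 CPM in Xcl1-zero cells, with no overlap (4.12 ± 0.29, edgeR adjusted p = 5.09e-12). It was seen in 51.5% and 3.75% of the cells, and after thinning in 20.4% and 1.44%. The tumour necrosis factor receptor family genes Tnfrsf4 (OX40, 2.18 ± 0.16), Tnfrsf9 (4-1BB, 1.54 ± 0.14) and Tnfrsf18 (GITR, 0.71 ± 0.15) were higher. So was Il2ra, the high-affinity chain of the interleukin 2 receptor (2.37 ± 0.33). Icos (-0.81), Il2rb (-0.64) and Tnfrsf1b (-0.87) were lower, so that the list had 6 higher and 3 lower of 15 tested and a median of 0.28. With depth matched in 8 mice, Tnfrsf1b did not pass within 3000 to 10000 UMIs (-0.65, edgeR adjusted p = 0.124), nor Il2rb (-0.39, edgeR adjusted p = 0.176) and Tnfrsf18 (0.30, edgeR adjusted p = 0.428) after thinning. Cd69, Cd44 and Cd28 did not pass.

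A list of inhibitory receptors and related surface molecules other than Pdcd1 was split, with 3 of 12 tested members higher and 5 lower and a median of -0.82. Of the 3 that were higher, Cd160 encodes a receptor, and Cd200 and Pdcd1lg2 (PD-L2) encode ligands. Cd160 stood at a median of 232 against 99.2 CPM without overlap between the groups (1.59 ± 0.20, edgeR adjusted p = 5.12e-07), and Cd200 was higher as well (2.90 ± 0.45). Entpd1, which encodes the ectoenzyme CD39, a marker of terminally exhausted cells, was lower in all 8 mice (medians 10.0 and 82.1 CPM, -3.10 ± 0.49, edgeR adjusted p = 2.11e-05). Cd200r1 (-1.61 ± 0.34), Cd38 (-1.58) and Ctla4 (-0.92) were lower too. Tigit was also called lower (-0.41, edgeR adjusted p = 0.0426). With depth matched in 8 mice it stood at 0.03 within 3000 to 10000 UMIs and at 0.19 after thinning, and did not pass. Ctla4 did not pass with depth matched in 8 mice (-0.44, edgeR adjusted p = 0.121, within 3000 to 10000 UMIs and -0.28, edgeR adjusted p = 0.426, after thinning). Lag3 had a log2 ratio of 0.41 ± 0.18 (edgeR adjusted p = 0.107) and Havcr2, which encodes TIM-3, one of -0.73 ± 0.27 (edgeR adjusted p = 0.0519 in 4 mice, 0.0471 in 8, and 0.012 without PBS mouse 9). Lag3 passed without LR mouse 2 (0.58, edgeR adjusted p = 0.0317).

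**Figure D4:**
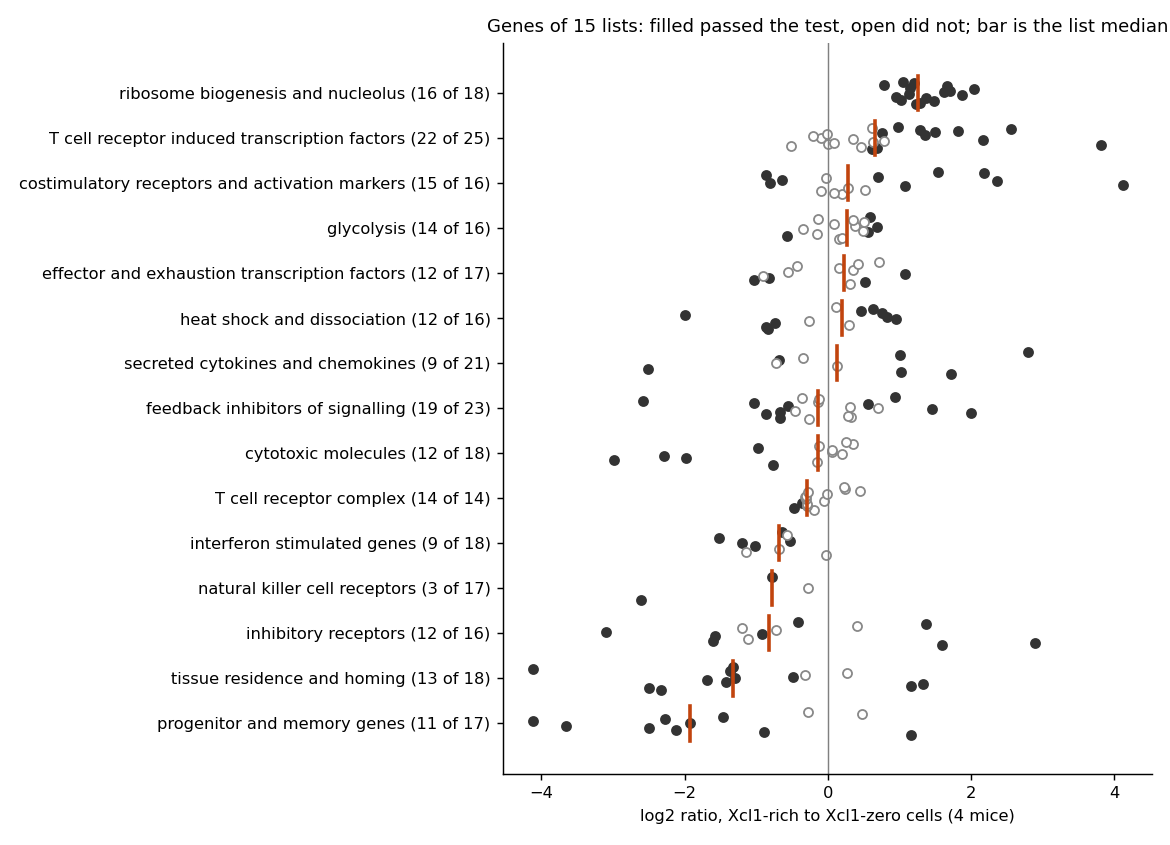
Each point is a gene of 1 of 15 lists (the 2 numbers after a list give genes tested and genes listed), plotted by its log2 ratio of Xcl1-rich to Xcl1-zero cells in 4 mice. Filled points passed the test, open points did not, and the orange bar is the list median. All 16 tested genes of the ribosome biogenesis list, 2 chaperonin genes included, lie to the right of 0, and 8 of 11 tested progenitor and memory genes are lower and passed.

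Genes of progenitor, naive and memory cells were mostly lower: 8 of 11 tested members passed downwards and 1 upwards, with a median of -1.93. The quiescence factor Klf2 ran from 14.7 to 119 CPM in Xcl1-rich and from 118 to 910 CPM in Xcl1-zero cells and was lower in all 8 mice (-2.50 ± 0.25, edgeR adjusted p = 1.29e-08). Klf3 (-3.66), the egress receptor gene S1pr1 (-4.12 ± 0.59), the interleukin 7 receptor gene Il7r (-2.12) and Lef1 (-1.93) moved with it. Ccr7, a lymph node homing receptor, was the member that was higher (1.16 ± 0.28, edgeR adjusted p = 0.00278), in 6 of 8 mice. It did not pass with depth matched in 8 mice (0.39, edgeR adjusted p = 0.393, within 3000 to 10000 UMIs and 0.91, edgeR adjusted p = 0.0952, after thinning), and its ratio was -0.16 against Tcf7-positive Xcl1-zero cells (edgeR adjusted p = 0.742). The markers of progenitor exhausted cells did not pass: Tcf7 had a log2 ratio of -0.27 ± 0.23 (edgeR adjusted p = 0.437) and Slamf6 one of 0.48 ± 0.32 (edgeR adjusted p = 0.307). Tcf7 passed in opposite directions in different fits: lower without LR mouse 2 (-0.74, edgeR adjusted p = 0.0315), and higher with Pdcd1 of at least 2 UMIs in both groups (0.69, edgeR adjusted p = 0.0388).

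Residence and homing genes overlapped this list in S1pr1 and Ccr7, with 2 of 13 tested members higher and 9 lower and a median of -1.33. The inflammatory chemokine receptor genes Ccr2 (-2.32 ± 0.35), Cxcr3 (-1.43) and Cxcr6 (-1.30) were lower. In the 8-mouse fits that match depth Cxcr3 did not pass (-0.17, edgeR adjusted p = 0.721, within 3000 to 10000 UMIs and -0.63, edgeR adjusted p = 0.233, after thinning), while Cxcr6 did. Ccr8, the receptor gene for CCL1, was higher (1.34 ± 0.30, edgeR adjusted p = 0.00131), with medians of 75.2 and 28.2 CPM.

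Cytotoxic genes were lower where they changed: 5 of 12 tested members were lower and none higher, with a list median of -0.14 in 4 mice and 0.05 in 8 mice. Gzmb, the gene of granzyme B, stood at 287, 8.94, 1283 and 343 CPM in the Xcl1-rich cells of LR mice 1 to 4 and at 51.3, 123, 203 and 400 CPM in those of PBS mice 6 to 9. The Xcl1-zero cells of the same mice stood at 604, 1373, 1114, 1133, 616, 278, 607 and 708 CPM. Gzmb was thus lower in 7 of 8 mice and higher in LR mouse 3 (-1.99 ± 0.36, edgeR adjusted p = 0.000138). Gzmk was lower in all 8 mice (-2.29 ± 0.23, edgeR adjusted p = 1.76e-08), and the perforin gene Prf1 in 7 (-0.98 ± 0.31, edgeR adjusted p = 0.0239). Prf1 did not pass without LR mouse 2 (-0.37, edgeR adjusted p = 0.3) or PBS mouse 9 (-1.13, edgeR adjusted p = 0.0585). Gzma was at 0 in the Xcl1-rich cells of 6 mice (-2.98 ± 0.45). Nkg7, Ctsw and Srgn did not pass, with log2 ratios of 0.05, -0.15 and 0.26.

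Effector and exhaustion transcription factors showed 2 higher and 2 lower of 12 tested. Rbpj, the DNA-binding partner of Notch, was higher (1.08 ± 0.22), and Id2 (-1.02 ± 0.15) and Ikzf3 (-0.82 ± 0.19) were lower. Within 3000 to 10000 UMIs in 8 mice Rbpj passed, and Id2 (-0.45, edgeR adjusted p = 0.0992) and Ikzf3 (-0.33, edgeR adjusted p = 0.281) did not. After thinning Id2 passed and Ikzf3 did not (-0.20, edgeR adjusted p = 0.636). Tox, a factor of exhausted cells, did not pass (0.43 ± 0.19, edgeR adjusted p = 0.102) except without LR mouse 2 (0.59, edgeR adjusted p = 0.0437), nor did Tbx21, Eomes or Prdm1.

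Genes of ribosome biogenesis and the nucleolus formed the list in which every tested member was called. All 16 tested members of 18 were higher, against 11.7% of all genes, with a median log2 ratio of 1.26 and a range from 0.79 (Npm1) to 2.05 (Nop16). The list also held 2 mitochondrial chaperonin genes, Hspd1 and Hspe1, and without them 14 of 14 were higher, with the same median. The ratios were smaller with depth matched in 8 mice. Within 3000 to 10000 UMIs 7 members were tested and 7 passed, with a median of 0.79, and Npm1 was at 0.30 and Fbl at 0.88. After thinning 5 were tested and 5 passed, with a median of 0.74. Mybbp1a, which encodes a nucleolar protein, ran from 119 to 219 CPM in Xcl1-rich cells and from 39.5 to 79.6 CPM in Xcl1-zero cells without overlap (1.88 ± 0.22, edgeR adjusted p = 2.26e-07). Fbl, the methyltransferase of ribosomal RNA, was higher in all 8 mice (1.48 ± 0.17). In 8 mice 13 members were tested and all 13 were higher, with a median of 1.07. Glycolysis moved less, with 3 of 14 tested members higher (Ldha, Tpi1 and Pgam1, log2 ratios 0.56 to 0.69) and Gpi1 lower (-0.57). Tpi1 did not pass without LR mouse 1 (edgeR adjusted p = 0.0938), and within 3000 to 10000 UMIs in 8 mice Gpi1 alone of the 4 passed. After thinning in 8 mice 3 of the 4 passed, Ldha (0.49), Pgam1 (0.74) and Gpi1 (-0.57). Gpi1 did not pass without PBS mouse 8 (edgeR adjusted p = 0.0573) or PBS mouse 9 (edgeR adjusted p = 0.0551).

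Stress genes were mixed, with 5 of 12 tested members higher and 4 lower. The chaperone genes Hsp90aa1 (0.95 ± 0.15), Hsp90ab1 (0.83) and Hspa8 (0.47) were higher. Within 3000 to 10000 UMIs in 8 mice 2 of the 8 called members that could be tested passed, Hsp90aa1 and Hsp90ab1. After thinning in 8 mice 4 of 7 passed, these and Hspa8 (higher) and Btg1 (lower). Hspa1a, which shares sequence with a near-identical neighbour so that its count is uncertain, was lower (-1.99 ± 0.44) but at 673 CPM in the Xcl1-rich cells of LR mouse 4. Interferon stimulated genes had 5 of 9 tested members lower and none higher, with a median of -0.69, among them Irf7 (-1.52 ± 0.39) and Ifi47 (-1.02 ± 0.19). The gene of the interferon gamma receptor chain Ifngr1 ran from 80.4 to 264 CPM against 281 to 759 CPM, without overlap (-2.36 ± 0.18, edgeR adjusted p = 3.65e-11). Of the T cell receptor complex, 2 of 14 genes were lower, Cd247 (-0.47 ± 0.17) and Cd3g (-0.36 ± 0.13), and none higher. Cd3g passed in no fit that left out 1 of the 4 mice, and Cd247 passed only without LR mouse 2. Only 3 of 17 natural killer cell receptor genes were tested, and Cd7 (-2.60 ± 0.30) and Klrd1 (-0.78 ± 0.16) were lower. Klrd1 did not pass with depth matched in 8 mice (-0.35, edgeR adjusted p = 0.232, within 3000 to 10000 UMIs and -0.24, edgeR adjusted p = 0.443, after thinning), nor did Cd247 or Cd3g in either fit.

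Outside the lists, the highest genes were Lad1 (4.09 ± 0.27), Cd70 (4.02 ± 0.36), Cd81 (3.44 ± 0.44), Ccdc184 (3.03 ± 0.41), Crtam (2.96 ± 0.26), Srm (2.57 ± 0.23), Marcksl1 (2.51 ± 0.40), Mettl1 (2.44 ± 0.40), Tagap (2.33 ± 0.23) and Cd74 (2.32 ± 0.34). Lad1, known as an epithelial anchoring protein gene, ran from 92.3 to 295 CPM against 5.91 to 17.3 CPM (edgeR adjusted p = 1.48e-12). Crtam, the gene of a receptor found on activated CD8 T cells, ran from 89.2 to 523 CPM against 15.2 to 53.8 CPM, and Cd70, the ligand of CD27, from 34.2 to 383 against 3.79 to 24.9 CPM. Lad1, Cd70, Cd81, Crtam and Srm did not overlap between the groups, but Cd81 stood at 47.8 and 45.6 CPM in LR mouse 1. These genes were picked for large ratios, and genes without overlap were not counted over all genes tested. Marcksl1 was higher in only 4 of 8 mice.

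The lowest genes outside the lists, by log2 ratio, were Fgl2 (-3.60 ± 0.44), Ifi213 (-3.60 ± 0.71), Zfp652 (-3.17 ± 0.61), Irak2 (-3.08 ± 0.60), Pik3ip1 (-2.77 ± 0.51), Ripor2 (-2.76 ± 0.52), Wdr95 (-2.55 ± 0.44), Ifi208 (-2.41 ± 0.45), Gm36723 (-2.37 ± 0.39) and Ifngr1. Most of them were sparse. Outside the 4 fitted mice some were higher in Xcl1-rich cells. These were Fgl2 in LR mouse 3 (147 against 106 CPM) and PBS mouse 7 (30.8 against 11.8 CPM), and Irak2 in LR mouse 3 (73.7 against 45.5 CPM). Zfp652 in LR mouse 3 and Ifi208 in LR mouse 4 were slightly higher. Pik3ip1, an inhibitor of the PI3 kinase, had a UMI in 6.93% of Xcl1-rich and 25.4% of Xcl1-zero cells. Ifi213 and Ifi208 belong to a family of similar genes, so the split of reads between its members is uncertain.

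Markers of other cells were checked beside these differences. Summed per mouse, the 7 natural killer markers stood at 79.2 to 445 CPM in Xcl1-rich and 163 to 300 CPM in Xcl1-zero cells, with Ncr1, Klrb1c and Klra8 at 0 in the Xcl1-rich cells. The 6 B cell markers stood at 54.6 to 554 and 75.3 to 730 CPM, made up of Cd74, Ighm and Cd79b, and Cd79a and Ms4a1 were at 0 in both groups. Cd74 was seen in 39 Xcl1-rich cells, and its partners H2-Aa and H2-Ab1, named after their values were seen, in 4 cells each. In Xcl1-rich cells the 8 myeloid markers reached at most 30.8 CPM, with Csf1r, C1qa, C1qb, Xcr1 and Clec9a at 0, and in Xcl1-zero cells at most 54.4 CPM, with Csf1r and Clec9a at 0. The 5 melanoma markers reached at most 16.2 CPM in Xcl1-rich cells, with Pmel, Tyrp1 and Tyr at 0, and 1.47 CPM in Xcl1-zero cells. Cycling markers other than Mki67 and Top2a summed to 405 to 1026 CPM and 400 to 689 CPM. Leaving out the barcodes that Scrublet marked gave 514 genes higher and 461 lower.

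The set was next compared with Xcl1-zero cells that had a Havcr2 UMI (361 cells in 8 mice) and with those that had a Tcf7 UMI (338 cells). Both comparisons were added after the first results were seen, both used the same 4 mice, and the comparison cells alone were chosen on those genes. Against the Havcr2-positive cells 326 of 3282 genes were higher (9.93%) and 294 lower (8.96%). Against the Tcf7-positive cells 479 of 2829 were higher (16.9%) and 422 lower (14.9%).

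Some genes set the Xcl1-rich cells apart from both. Cd83 was higher than in Havcr2-positive (3.92 ± 0.33) and in Tcf7-positive cells (4.59 ± 0.45), as were Lad1 (3.62 ± 0.30 and 4.27 ± 0.35) and Crtam (3.20 ± 0.31 and 2.59 ± 0.31). Ccl5 was lower than in either (-2.68 ± 0.38 and -2.19 ± 0.35), as were Gzmk (-2.59 ± 0.26 and -1.93 ± 0.30) and Ifngr1 (-1.89 ± 0.19 and -2.74 ± 0.20). All of these passed (edgeR adjusted p of 9.63e-05 or less).

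Other genes passed against 1 population only, and those differences were not tested against each other. Tcf7 chose the Tcf7-positive cells, so it could be tested against the Havcr2-positive cells only. It was higher in the Xcl1-rich cells (1.52 ± 0.27, edgeR adjusted p = 0.000673), but not against all Xcl1-zero cells (-0.27 ± 0.23, edgeR adjusted p = 0.437). The log2 ratio of Il7r was -3.38 ± 0.24 against Tcf7-positive cells (edgeR adjusted p = 3.24e-09) and 0.36 ± 0.35 against Havcr2-positive cells (edgeR adjusted p = 0.527). Klf2 gave -3.68 ± 0.29 and -0.82 ± 0.34 (edgeR adjusted p = 0.0964 for the second). Gzmb was lower than in Havcr2-positive cells (-2.53 ± 0.45) and did not pass against Tcf7-positive cells (-0.97 ± 0.53, edgeR adjusted p = 0.171), and Prf1 gave -1.70 ± 0.35 and -0.06 ± 0.48. Lag3 was higher than in Tcf7-positive cells (1.70 ± 0.22) and gave -0.14 ± 0.18 against Havcr2-positive cells, and Tox gave 1.05 ± 0.27 and 0.05 ± 0.18.

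**Figure D5:**
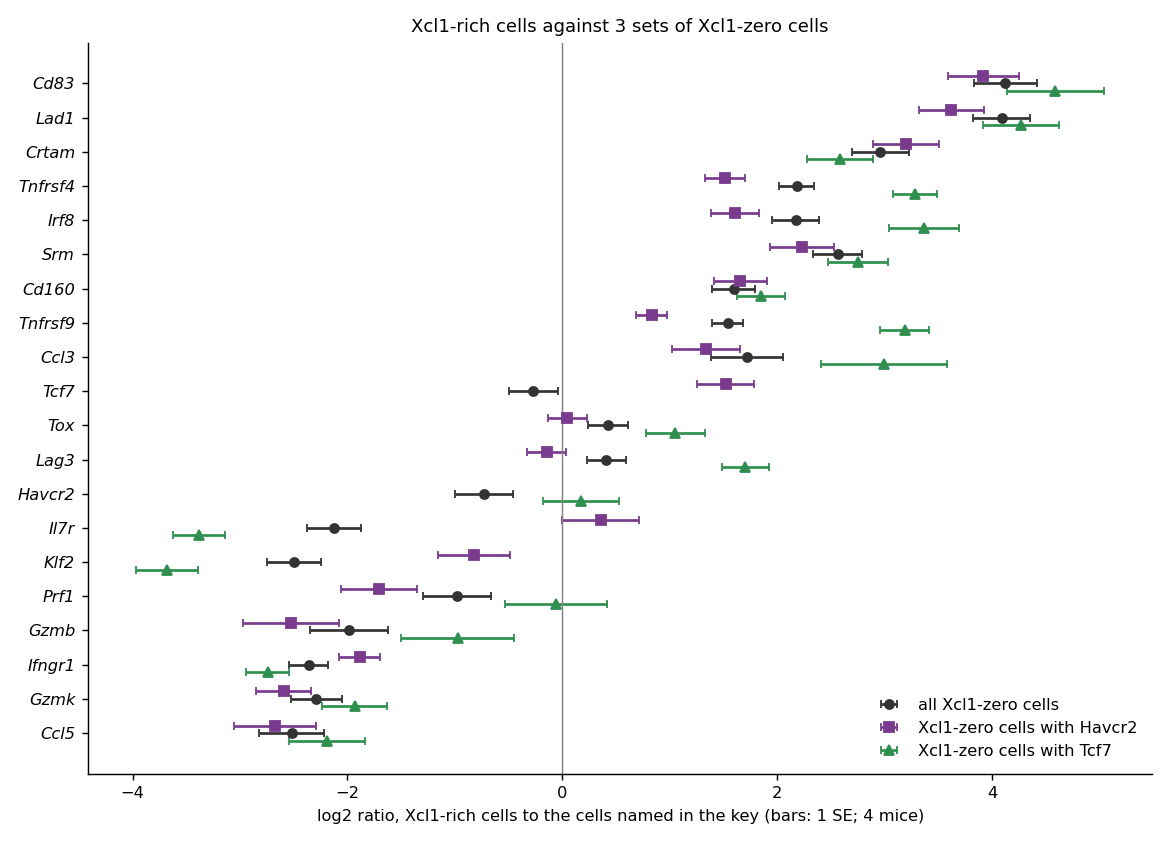
Points give the log2 ratio of Xcl1-rich cells to all Xcl1-zero cells (circles), to Xcl1-zero cells with Havcr2 (squares) and to those with Tcf7 (triangles), with 1 standard error, from 4 mice. No point is drawn where the gene chose the comparison cells. Cd83, Lad1 and Crtam lie to the right and Ccl5, Gzmk and Ifngr1 to the left for all 3, while Il7r runs from -3.38 to 0.36.

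Treatment was compared over mice. Xcl1-rich cells made up 10.5%, 13.4%, 13.6% and 4.71% of Pdcd1-positive gate cells in LR mice 1 to 4 and 7.08%, 5.81%, 11.9% and 4.98% in PBS mice 6 to 9. The means were 10.6% ± 4.16 and 7.45% ± 3.11 (SD, n = 4 mice each), the ranges overlapped, and a two-sided exact permutation test gave p = 0.314, where 0.0286 is the smallest possible.

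Within the Xcl1-rich cells, LR mice 1 and 2 were set against PBS mice 8 and 9, the mice with at least 10 such cells. edgeR called 1 gene higher in LR, Trbv12-2, and 2 lower, Ccl3 and Ccl4, out of 2257 tested (0.133%). Before adjustment 121 genes had p below 0.05 in edgeR, and DESeq2 called 0 with 30 genes below that p. Leaving out 1 mouse at a time gave 0 calls without LR mouse 1, 18 without PBS mouse 8 and 19 without PBS mouse 9. In all 8 mice edgeR called 0 of 1487 genes (0%), 51 of which had p below 0.05 before adjustment. DESeq2 called 0 there too, with 22 genes below that p.

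Ccl4 stood at 2172 and 930 CPM in the Xcl1-rich cells of LR mice 1 and 2 and at 6452 and 7537 CPM in those of PBS mice 8 and 9 (-2.14 ± 0.32, edgeR adjusted p = 0.0327). The 4 mice left out stood at 1209 and 1149 CPM (LR 3 and 4) and at 564 and 4955 CPM (PBS 6 and 7), so the treatments overlapped over 8 mice (-1.83, edgeR adjusted p = 0.999). Single cells carried much of these sums: 433 of the 886 Ccl4 UMIs of PBS mouse 9 and 158 of the 161 of PBS mouse 7 came from 1 cell each. Ccl3 stood at 1059 and 366 against 3729 and 3275 CPM (-2.28 ± 0.36, edgeR adjusted p = 0.0341), and at 2167, 924, 308 and 1016 CPM in LR mice 3 and 4 and PBS mice 6 and 7. Without LR mouse 1 neither Ccl3 nor Ccl4 passed (edgeR adjusted p = 0.212 each). Trbv12-2, a T cell receptor segment similar to others of its family, rested on 1 cell with 21 UMIs in LR mouse 1 and 1 with 22 in LR mouse 2.

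The other genes fixed for this comparison did not pass in the 4 mice. Over 4 mice the log2 ratio of LR to PBS was -0.40 ± 0.56 for Ccl1 (edgeR adjusted p = 0.976), -0.05 ± 0.54 for Ifng (0.992) and 2.98 ± 0.75 for Csf2 (0.369). It was -1.13 ± 0.76 for Gzmb (0.904) and -1.91 ± 0.72 for Prf1 (0.826). Xcl1 stood at -0.46 ± 0.33, which is a description only, because the rule chose each cell by its Xcl1 UMIs. With 1 PBS mouse left out, 1 PBS mouse stood for its group, so only ratios are given. Xcl1 was at -1.0 without PBS mouse 8, and Prf1 was at -2.48 without PBS mouse 9. Csf2 gave no fold without PBS mouse 8, because the remaining PBS mouse 9 was at 0 UMIs. Ahr, the aryl hydrocarbon receptor gene, had a UMI in 6.93% of Xcl1-rich cells and was not tested. The test of whether the LR effect differed between Xcl1-rich and Xcl1-zero cells called 4 of 5586 genes in the 4 mice (0.0716%): Trbv12-2, Ccl3, Lgals3 and Ccl4. With 8 mice it called 1 of 4361 (0.0229%), Trbv12-2. Leaving out single mice gave between 10 and 40 calls.

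T cell receptor segments were read from the same libraries as a rough view of clonality. In LR mouse 2, 11 of 21 Xcl1-rich cells had Trbv13-3 as their leading beta segment, against 20 of 114 Xcl1-zero cells. In that mouse 7 Xcl1-rich cells paired it with Trav12-3, as 4 Xcl1-zero cells did. In PBS mouse 9 the leading segment was Trbv16 in 5 of 12 Xcl1-rich and 75 of 187 Xcl1-zero cells. Over the 4 mice with at least 10 cells, the chance that a pair of cells shared its segment averaged 16.5% in Xcl1-rich and 17.4% in Xcl1-zero cells, and was higher in the Xcl1-rich cells of 2 of these mice. A two-sided exact permutation test by sign flips gave p = 0.875, but with 4 mice it cannot go below 0.125 and so cannot show whether the groups differ. The sign of that difference changed when LR mouse 1, or the barcodes marked by Scrublet, were left out.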

How the data were processed

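The members and gene lists were chosen with earlier results of these data known. The authors deposited raw UMI counts of 1 pooled gene expression library with hashtags, written by Cell Ranger 4.0.0 per the file headers. GRCm38 is the build in the submitters' processing notes, and no annotation version or cell filter is stated there. Gene UMIs totalled 64359313 in 16969 barcodes, of which 14474 passed the filters and 10713 had 1 hashtag (432 to 2777 cells and 2489941 to 10231333 UMIs per mouse). A hashtag named for LR mouse 5 had no cells. The Xcl1-rich cells of a mouse held 32491 to 223768 UMIs, and their number and depth limit the precision.

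Counts were summed per mouse and group and tested with edgeR 4.0.16 (R 4.3.3, TMM factors, filterByExpr, glmQLFit, mouse as block within mice), with DESeq2 1.42.0 as an alternative. Scrublet ran in scanpy 1.11.5 and removed nothing from the main results. Genes that chose the cells, and Csf2, Ifng and Ccl1, entered no test between Xcl1-rich and Xcl1-zero cells. The fits were tested on simulated data. No test of a list was made. Some list members are not reported here.

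Named genes were up to 3 per list and 10 higher and 10 lower outside the lists, by log2 ratio among those called with the same direction in every mouse tested, plus a fixed set (label and gate genes, Tcf7, Havcr2, Tox, Slamf6, Gzmb, Prf1, Tnf, Il2, Lag3, Nr4a1, Ahr) and up to 10 genes called between treatments. Genes outside the lists also needed a UMI in a minimum share of cells of the higher group, and T cell receptor segments were left out there. Other list members named were chosen after their values were seen. Intervals of shares are Clopper-Pearson. Mouse numbers differ between treatments and pair no mice.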

Additional observations from a re-analysis of the deposited data

Results flagged for a closer look

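A mouse stood far from the other mice in 20 of 165 values tested, by Dixon's criterion at 95%, which chance alone meets in about 1 of 20 groups. Of the 20, 16 were in the Xcl1-rich cells, where a mouse is the sum of 5 to 22 cells. LR mouse 3, with 9 Xcl1-rich cells, was the highest mouse for Gzmb (1283 CPM), Lgals3 (354), Cd3g (1946), Entpd1 (59.0), Fgl2 (147), Gm36723 (103) and Zfp652 (44.2 CPM). LR mouse 4, also with 9, was the highest for Cd70 (383 CPM), Hspa1a (673) and Ifngr1 (264 CPM). PBS mouse 8 was the highest for Ccl5 (6639 CPM) and Ccdc184 (292 CPM), PBS mouse 7 for Crtam (523 CPM) and Pik3ip1 (61.6 CPM), PBS mouse 9 for Gzma (51.0 CPM) and LR mouse 1 for Il2 (68.3 CPM). In Xcl1-zero cells LR mouse 4 was the highest for Cd74 (720 CPM) and Tnfrsf4 (379 CPM), and PBS mouse 7 was the highest for Pik3ip1 (163 CPM) and the lowest for Wdr95 (23.6 CPM). In Xcl1-zero cells as a whole, 1 cell held 299 of the 849 Cd74 UMIs.

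The LR effect differed between Xcl1-rich and Xcl1-zero cells in the edgeR interaction test over 4 mice for Ccl3 (difference in log2 effect -2.84, adjusted p = 0.000314), Ccl4 (-2.20, adjusted p = 0.0176), Lgals3 (-3.03, adjusted p = 0.00593) and Trbv12-2 (5.87, adjusted p = 0.000314). Lgals3 summed to 5 and 6 UMIs in the 20 and 22 Xcl1-rich cells of LR mice 1 and 2, to 15 and 19 UMIs in the 16 and 12 of PBS mice 8 and 9, and to 24 UMIs in the 9 of LR mouse 3, which was not in that fit. With all 8 mice the differences for Ccl3, Ccl4 and Lgals3 were -1.08, -1.68 and -1.06 and none of the 3 passed (adjusted p = 0.999 each), while Trbv12-2 did (4.64, adjusted p = 0.0158).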

How the results depend on the processing

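Genes called higher and lower in Xcl1-rich cells numbered 547 and 484 in 4 mice. They numbered 229 and 151 with DESeq2, 308 and 244 in the 2 mice with at least 20 cells, 37 and 23 in the 2 mice left among cells of 3000 to 10000 UMIs, 278 and 203 with Xcl1 above 1000 CPM in a cell (3 mice), 90 and 82 after thinning, and 326 and 294 against Havcr2-positive cells. They were 135 and 117 in 8 mice within that UMI range and 83 and 74 in 8 mice after thinning. With no filter on low counts they were 459 and 632, so that the balance of higher to lower calls changed. Leaving out 1 mouse gave 386 to 484 higher and 312 to 402 lower in 4 mice (312 without PBS mouse 9), and 337 to 504 higher and 305 to 468 lower in 8 mice (337 and 305 without LR mouse 2). Leaving out a mouse also left fewer samples, and thinning fewer genes; other causes were not tested. For 67 named genes that passed, the alternatives listed beforehand gave 933 values, of which 824 passed again in the same direction and 108 did not pass. Of those that could be tested, 12 of 67 lost the call with DESeq2, 35 of 57 in the 2 mice within 3000 to 10000 UMIs, 7 of 27 in 8 mice within that range, 10 of 33 after thinning in 4 mice and 6 of 23 in 8. Of the 67, 1 changed sign with another setting (Ccl4, with at least 20 cells) and 1 in a setting added after the data were seen (Tpi1).

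Genes called between LR and PBS numbered 3. They were 0 with DESeq2, with Xcl1 of at least 5 UMIs, with a hashtag share of at least 90%, and in 8 mice with edgeR or DESeq2. They were 6 with library totals, 22 with no filter, 5 without Scrublet-marked barcodes, and 0 to 19 leaving out 1 mouse. Interaction calls numbered 4. They were 0 with DESeq2 in 4 or 8 mice, 24 with no filter, 13 with Xcl1 of at least 5 UMIs, 10 with a hashtag share of at least 90%, 28 without Scrublet-marked barcodes, 10 to 40 leaving out 1 mouse, and 1 in 8 mice. The difference in share was 3.11 percentage points and ran from 2.08 to 5.05 leaving out 1 mouse. Within 3000 to 10000 UMIs it was 1.92 (exact permutation p = 0.457). With cells thinned to 2000 UMIs before the gate, and Xcl1 of at least 2 UMIs, it was 1.72 (exact permutation p = 0.686). The difference in Trbv sharing was -0.813 percentage points, 1.14 with a hashtag share of at least 90%, 3.48 without Scrublet-marked barcodes, and -2.33 to 1.68 leaving out 1 mouse.

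These log2 ratios changed sign, and the cause was not tested. Between Xcl1-rich and Xcl1-zero cells, Ccl4 was -0.14 and Tcf7 0.28 with at least 20 cells. Tcf7 was 0.15 within 3000 to 10000 UMIs, 0.69 with Pdcd1 of at least 2 UMIs and 1.52 against Havcr2-positive cells, which also gave -0.14 for Lag3. Slamf6 ran from -0.12 (without LR mouse 2) to 0.76 leaving out 1 mouse and was -0.36 against Tcf7-positive cells, which gave 0.17 for Havcr2, -0.16 for Ccr7, 0.18 for Rgs1 and 0.25 for Cish. Tpi1 was -0.22 and Tigit 0.03 in 8 mice within 3000 to 10000 UMIs. Tigit was also 0.19 in 8 mice after thinning and 0.32 against Tcf7-positive cells. Between LR and PBS, Ifng ran from -1.85 to 0.77 leaving out 1 mouse (0.77 without LR mouse 2, 0.16 without PBS mouse 9) and was 0.11 with Xcl1 of at least 5 UMIs, 0.57 with the 90% hashtag share, 0.062 without Scrublet-marked barcodes, and 0.13 with edgeR and 0.27 with DESeq2 in 8 mice. Ccl1 ran from -2.4 to 0.46 (without LR mouse 2) and was 0.28 with the 90% hashtag share, and Xcl1 ran from -1.0 to 0.36 (without PBS mouse 9). Gzmb was 0.99 with edgeR and 1.32 with DESeq2 in 8 mice, and Prf1 0.50 with DESeq2.

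For LR against PBS and the interaction, too few mice were left to run the minimum of 20 cells and the UMI range, and the UMI range gave no value for Trbv sharing. No paired analysis was possible because LR and PBS mice carry different numbers. Within mice, dropping the mouse block gave 544 and 469 genes.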
